A study of Homo sapiens with 9 samples.

Results

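A set of 9 stretches of the genome on 7 autosomes (chromosomes 1, 2, 5, 9, 16, 17 and 19) carried groups of p300 peaks in every deposited peak list of irradiated PC3 cells, dense in most windows and sparse in some. They are called windows here. They were chosen by a measured property of these lists: peaks of all lists that overlapped by at least 1 bp were merged into regions, regions found in all 5 lists were kept, and those lying within 50 kb of one another were linked into a cluster. Of 17 such clusters in the genome, 9 make up the windows described here. A peak was counted as a member when it overlapped a window, which gave 471 of the 19861 peaks in the 5 lists. All positions are hg19 coordinates counted from 1.

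The lists come from chromatin immunoprecipitation and sequencing of p300 in PC3 cells, an established line from a human prostate carcinoma metastasis. All cells were irradiated with 20 Gy and fixed 1 h later in 1% formaldehyde. The 2 untreated lists had no drug before irradiation, and the 3 treated lists had 30 µM MnTE-2-PyP for 24 h before it. MnTE-2-PyP, called T2E in the labels, is a manganese porphyrin that mimics superoxide dismutase. All lists thus come from 1 cell line, and none from cells that were not irradiated. The design text calls the samples biological replicates without saying how they were separated, so p-values measure only the spread among these 5 lists.

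p300 is an acetyltransferase that transcription factors bring to enhancers and promoters, where it acetylates histones, and its peaks are often used to mark active regulatory elements. Such elements usually lie far apart or in loose groups. Dense, regularly placed peaks can also be called where a sequence is repeated in tandem, because reads from many copies are placed on the few copies of the reference. The long arm of chromosome 17 is known for a tandem array of U2 small nuclear RNA genes, and the long arm of chromosome 1 for tandemly repeated tRNA genes. Whether the windows hold these genes was not tested, since no hg19 annotation or sequence was used, and copy number in PC3 cells, whose karyotype is rearranged, was not measured here.

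The lists differed in length, with 2313 and 2039 peaks untreated and 4922, 10059 and 528 treated. The lowest score, which is the authors' value per peak on a scale the labels do not name, was 3.04 in untreated list 1 and treated list 1 and between 2.02 and 2.16 in the other lists. Read depth behind the peaks is unknown. Scores were therefore turned into a percentile within each list, where 100 is the top peak of that list. Run identifiers in the peak names put untreated list 1 with treated list 1, and untreated list 2 with treated list 3, while treated list 2 had its own. The labels do not call these identifiers batches.

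The windows were held by every list, in unequal numbers of peaks. Untreated lists 1 and 2 had 100 and 65 peaks in the windows, and treated lists 1, 2 and 3 had 135, 101 and 70. The number varied about as much within each group as between the groups. The treated mean was 102 ± 32.5 (SD, n = 3) and the untreated mean 82.5 ± 24.7 (SD, n = 2), a log2 ratio of 0.31, and p was 0.4 in the exact permutation test, two-sided (adjusted p = 1 over 4 comparisons of groups). Leaving out 1 list moved the ratio to 0.03 (untreated list 2), 0.05 (treated list 1), 0.65 (untreated list 1) or 0.52 (treated list 3). The smallest possible p is 0.2, so no difference between these groups could pass 0.05. Within the pairs of one run identifier the log2 ratio, treated over untreated, was 0.43 for the lists numbered 1 and 0.11 for untreated list 2 and treated list 3.

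As a share of each list, the windows weighed most in the shortest one. They held 4.32% and 3.19% of the untreated peaks in lists 1 and 2, and 2.74%, 1.00% and 13.3% of the treated ones in lists 1, 2 and 3. Treated list 3 stood above and the other treated lists below both untreated lists. The treated mean exceeded the untreated mean by 1.91 percentage points, at 5.67 ± 6.63 (SD, n = 3) against 3.76 ± 0.803 (SD, n = 2), with an exact permutation p of 1 (adjusted p = 1). The sign came from treated list 3: without it the difference was -1.88 points. The pairs of one run identifier pointed in opposite directions, -1.58 points for the lists numbered 1 and 10.1 points for the other pair.

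**Figure D1:**
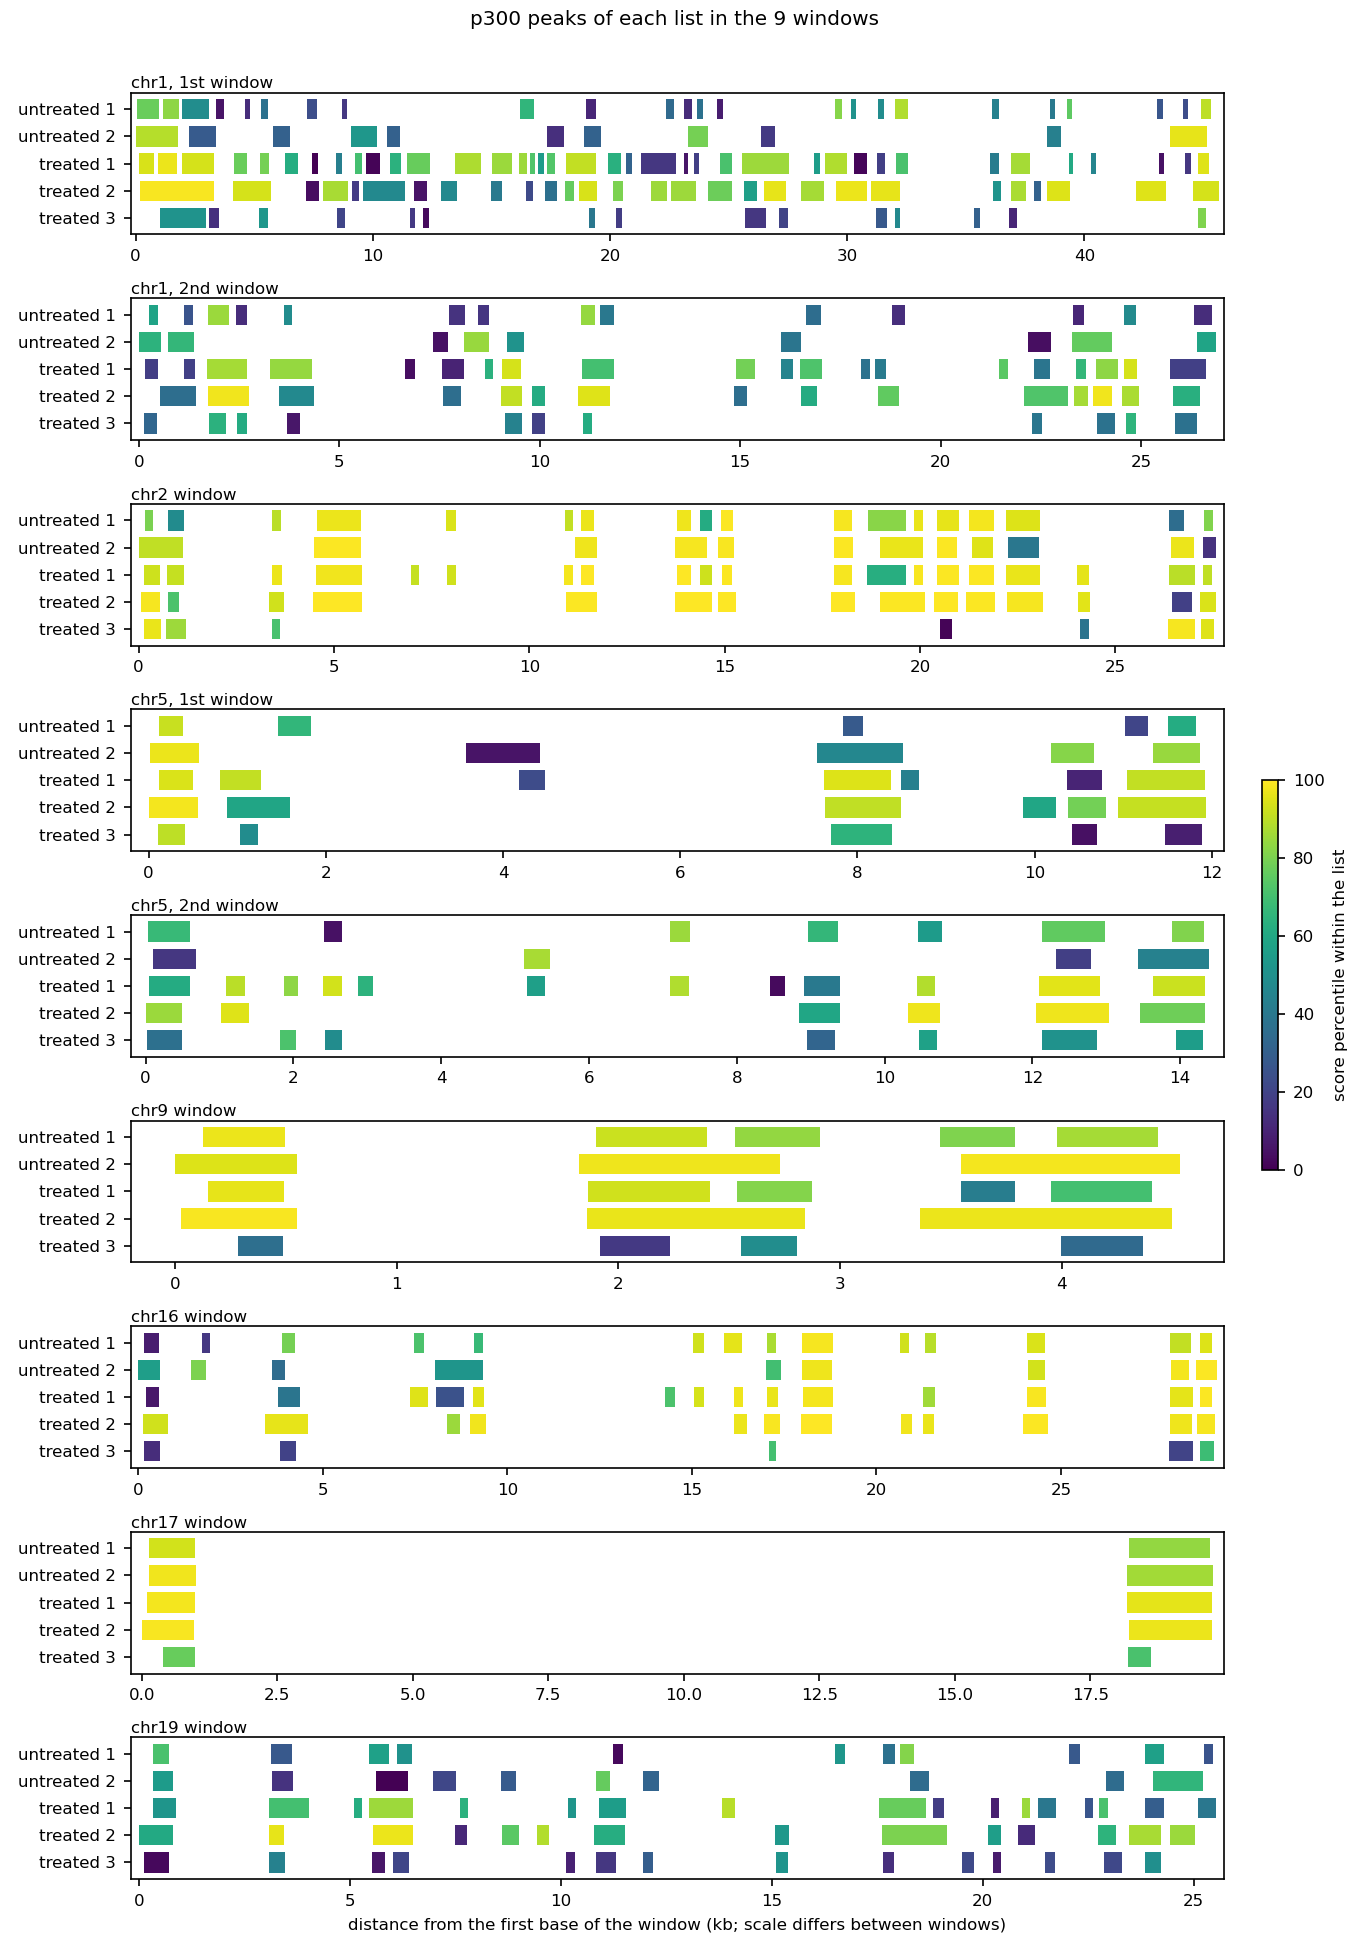
Peaks of each list in the 9 windows, drawn to scale within each window. The horizontal axis is the distance in kb from the first base of the window, each row is a list, each bar is a peak, and its colour is the percentile of its score within its list. The chromosome 2 window is bright in 4 lists and nearly empty in the middle in treated list 3, and the chromosome 17 window holds 2 peaks in each list with nothing between them.

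Each window had a form of its own. The first window on chromosome 1, chr1:2584112-2629801, was the longest, with 24 and 11 peaks untreated and 38, 28 and 15 treated. Its peaks covered between 15.1% (treated list 3) and 54.4% (treated list 2) of its 45.7 kb. The second window on chromosome 1, chr1:161412712-161439581, had 14 and 9 untreated and 20, 15 and 11 treated peaks, which covered 14.0% to 35.3% of it. In both windows treated list 1 had the most peaks and treated list 3 covered the least sequence.

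The chromosome 2 window, chr2:133011745-133039330, had 18 and 12 peaks untreated and 20, 15 and 7 treated. The chromosome 16 window, chr16:33935082-33964297, had 14 and 9 untreated and 14, 12 and 5 treated. These are the windows in which treated list 3 had the fewest peaks of all lists by the widest margin. The chromosome 19 window, chr19:36773451-36798973, differed from them in that treated list 3 had 14 peaks there, as many as treated list 2, against 17 in treated list 1 and 11 and 10 in the untreated lists.

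The remaining windows were short or sparse. The first chromosome 5 window, chr5:17517597-17529533, had 5 peaks in each untreated list and 7, 6 and 5 in the treated lists. The second, chr5:17585118-17599512, had 7 and 4 untreated and 12, 6 and 7 treated. They lie 55.6 kb apart, the narrowest distance between neighbouring regions of any cluster or single region that was above the 50 kb limit. The widest gap that was bridged inside a window was 24.0 kb, on chromosome 1, and the narrowest 79 bp, on chromosome 16.

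The chromosome 9 window, chr9:44875933-44880466, was the shortest at 4.53 kb, with 5 and 3 peaks untreated and 5, 3 and 4 treated, covering 25.2% to 58.3%. The chromosome 17 window, chr17:41381489-41401253, held 2 peaks in each list. Over all windows, treated list 1 had the most peaks, alone or tied, in 9 of 9. Few peaks lay just outside: within 5 kb on either side of all windows together there were 4 and 3 peaks untreated and 13, 11 and 2 treated.

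The peaks merged into 122 regions of the 16701 in the genome. Of these, 32 were held by all 5 lists and 31, 18, 22 and 19 by 4, 3, 2 and 1 list. Genome-wide, 148 regions or 0.886% were held by all 5 lists. The 32 recurrent regions are what the windows were built from, so their number is a description only. Of the other 90 regions in the windows, which were not required to recur, 21.1% belonged to a single list, against 90.7% of the 16463 regions elsewhere that were not in all 5 lists. This contrast was not tested. Overlap between lists is met more readily where peaks are dense, as in most windows, and treated lists 1 and 2 supply most peaks elsewhere. The part that peak density and list length play in the contrast was not tested.

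Sharing differed between the windows. All 3 regions on chromosome 9 and both on chromosome 17 were held by all 5 lists. In the first chromosome 5 window 3 of 6 regions were, on chromosome 16 it was 5 of 15, on chromosome 19 it was 6 of 22, and in the second chromosome 5 window 3 of 12. The chromosome 2 window had 4 of 16, and the chromosome 1 windows 3 of 29 and 3 of 17. The chromosome 19 window had the most regions held by a single list, 7 of 22, and the chromosome 2 and chromosome 16 windows 1 each.

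**Figure D2:**
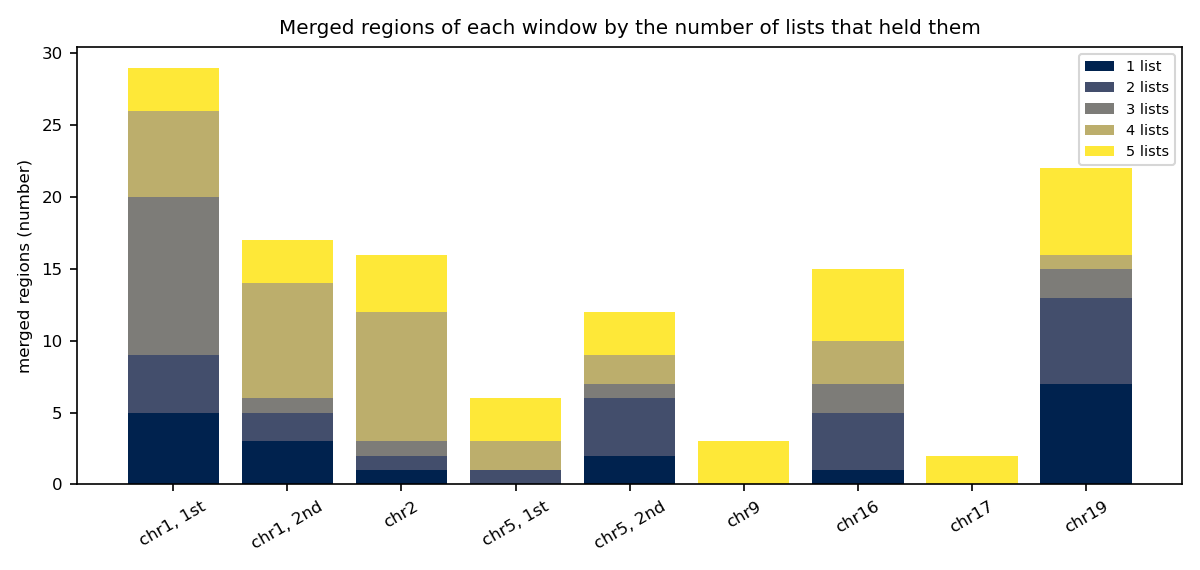
Number of merged regions in each window (vertical axis), stacked by how many of the 5 lists held them. The chromosome 9 and chromosome 17 bars consist of regions in all 5 lists, while the chromosome 2 bar is mostly regions in 4 lists, 9 of 16.

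The outlines of recurrent regions agreed to well under 1 kb between the lists in most cases. Over the 32 regions the median distance between the outermost and the innermost start called in the 5 lists was 290.5 bp, and for the ends it was 213 bp. In 8 of the 32 regions at least 1 edge fell within 100 bp in all lists. The merged regions were 422 to 3712 bp wide, with a median of 994.5 bp.

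The sharpest edges were in the chromosome 17 window. The region chr17:41381489-41382482 had scores of 29.5 and 19.1 untreated and 37.9, 26.9 and 11.7 treated. Its end fell at 41382470, 41382482, 41382481, 41382463 and 41382476 in the same order of lists, a spread of 19 bp. The region chr17:41399664-41401253 had scores of 16.3 and 8.59 untreated and 25.3, 15.9 and 10.8 treated. Its start varied by 32 bp. The edges that face each other were thus the reproducible ones.

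The outer edges on chromosome 17 varied more. The start of the first region varied by 398 bp over 5 lists, and the end of the second by 1153 bp, because treated list 3 called 420 bp of it where the other lists called 1506 to 1584 bp. Between the facing edges, a stretch of 17.2 kb held no peak in any list. The untreated and treated groups overlapped in score at both regions, with treated list 1 highest in both and treated list 3 lowest in the first.

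Windows also differed in how high their peaks ranked. The chromosome 2 window had a median percentile of 94.6 and 97.4 untreated and 97.0, 99.3 and 85.4 treated, a mean of 94.7 ± 5.47 (SD, n = 5). The chromosome 17 window followed with 88.6 and 92.0 untreated and 97.2, 98.0 and 74.1 treated, a mean of 89.99 ± 9.66. Peaks in these windows thus ranked near the top of most lists.

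In the middle of the order the lists spread widely. The chromosome 9 window had medians of 86.3 and 97.5 untreated and 81.5, 97.0 and 35.1 treated (mean 79.5 ± 25.8), and the chromosome 16 window had 90.01 and 80.3 untreated and 95.3, 97.6 and 20.3 treated (mean 76.7 ± 32.2). In both, 4 lists stood above 80 and treated list 3 below 40. The chromosome 5 windows had means of 73.3 ± 17.9 and 65.0 ± 24.6.

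The chromosome 1 windows and the chromosome 19 window came last. Their means were 53.2 ± 17.7 in the second chromosome 1 window, 48.1 ± 25.8 in the first, and 46.1 ± 18.9 on chromosome 19, close to the middle of a list. Neighbours in this order could not be told apart with 5 lists: over the 8 pairs the exact sign-flip permutation test over 5 lists gave p from 0.125 to 0.875 (adjusted p from 0.833 to 0.875). That test cannot go below 0.0625 before adjustment, and the order itself was set by these values. Treated list 2 was the highest list in 7 of 9 windows and treated list 3 the lowest in 7 of 9. Treated list 2 is also the longest list and treated list 3 the shortest, and the part of list length was not tested.

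**Figure D3:**
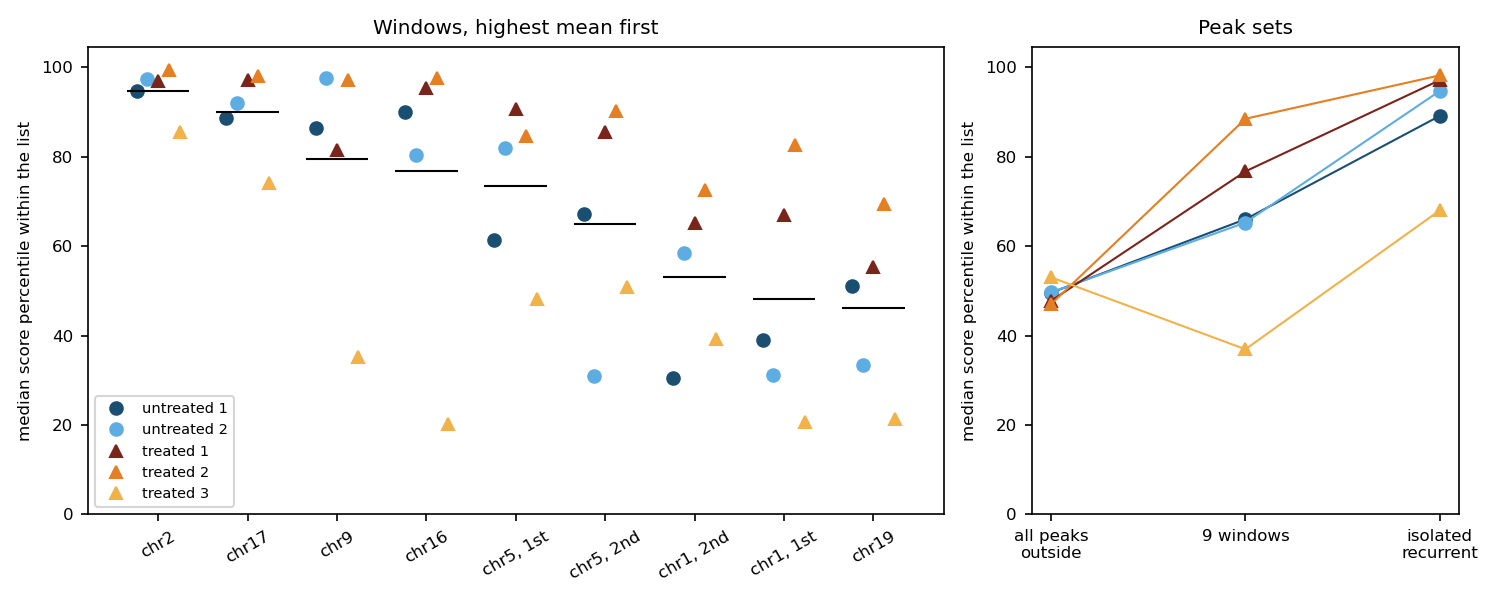
Left, the median score percentile of the peaks in each window (vertical axis) for every list, with windows ordered by their mean (bar); circles are untreated and triangles treated lists. Right, the same measure for the peaks outside the windows, the window peaks, and the peaks of isolated regions held by all 5 lists, with 1 line per list; treated list 3 is lowest in the last 2 sets.

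Over all windows, the median percentile of the member peaks was 66.0 and 65.3 untreated and 76.7, 88.5 and 36.9 treated. Treated lists 1 and 2 lay above and treated list 3 below both untreated lists. The treated mean of 67.4 ± 27.0 (SD, n = 3) and the untreated mean of 65.6 ± 0.526 (SD, n = 2) differed by 1.74 points, with an exact permutation p of 1 (adjusted p = 1). The difference was 10.7 within the lists numbered 1 and -28.3 between untreated list 2 and treated list 3. The sign of the pooled value depended on single lists: leaving out treated list 2 gave -8.81, leaving out treated list 1 gave -2.93, and 16.95 was reached without treated list 3.

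Set against the rest of its own list, a window peak ranked higher in 4 of 5 lists. Peaks outside the windows had medians of 49.6 and 49.7 untreated and 47.7, 47.0 and 53.0 treated, so that the windows stood higher by 16.4, 15.6, 29.0 and 41.5 points in the first 4 lists and lower by 16.1 in treated list 3 (mean 17.3 ± 21.4, SD, n = 5, and 11.2 without treated list 2). Window peaks were also wider. Their median widths were 324 and 565 bp untreated and 376, 589 and 326.5 bp treated, against 233, 372, 232, 322 and 238 bp for the other peaks. Score and width both bear on whether a peak recurs, which chose the windows, so no test is given for these differences.

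A closer comparison is with regions that were also found in all 5 lists but stood alone, with no other such region within 50 kb. There were 66 of these isolated regions. They were set against the 32 recurrent regions of the windows, and both sets met the same rule of recurrence. That rule asks for an overlap of at least 1 bp, which is met more readily where peaks are dense or wide. The part this plays in the comparison was not tested. Peaks of the windows' recurrent regions ranked lower in 5 of 5 lists. Their median percentiles were 69.3 and 68.1 untreated and 89.7, 94.2 and 38.8 treated, against 89.1, 94.7, 97.1, 98.2 and 68.0 at the isolated regions. The mean difference was -17.4 ± 11.3 points (SD, n = 5). The exact sign-flip permutation test, two-sided, gave p = 0.0625, the smallest it can give (adjusted p = 0.0833). That adjustment was over 4 comparisons within lists, including those given here without a test. Leaving out treated list 3 also changed both sets, since recurrence was then defined anew as presence in all 4 remaining lists. That gave 47 recurrent regions in the windows. For these larger sets the difference was -8.72 points, with the same sign in the 4 lists, so it is not a value for the same regions.

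The same recurrent peaks were wider in the windows than at isolated regions, again in 5 of 5 lists. Median widths were 367.5 and 582.5 bp untreated and 553, 709 and 389 bp treated in the windows, against 273, 461, 286.5, 475 and 242 bp at the isolated regions. The log2 ratio was 0.60 ± 0.24 (SD, n = 5), or 1.51-fold. Wider peaks overlap others more readily, and overlap chose the windows, so no test is given for this difference. The part that width plays in their recurrence was not tested. Relative to the other peaks of its list, width did not separate the groups: the treated minus untreated log2 difference was 0.14 (exact permutation p = 0.6, adjusted p = 1), and it was 0.22 and -0.15 in the pairs of one run identifier. Leaving out 1 list gave 0.04 (treated list 2), 0.07 (untreated list 1) or 0.24 (treated list 3).

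The windows were also compared with the 3 largest other clusters, on chromosomes 4, 8 and 10, a comparison chosen after the values were seen. The median percentile over all window peaks was below that of each cluster in 5 of 5 lists. It was lower by 13.7, 12.3 and 10.7 points on average. In each case the exact permutation p was 0.0625 (adjusted p = 0.0938 over 6 comparisons). Single windows did not all share this direction. In every list the medians of the chromosome 2 and chromosome 17 windows were above those of all 3 clusters. The medians of the chromosome 1 windows and the chromosome 19 window were below all 3 in every list. The remaining windows were above a cluster in some cases and below in others. In width the windows were below the chromosome 8 cluster in 5 of 5 lists, with a log2 ratio of -0.43 ± 0.28 (exact permutation p = 0.0625, adjusted p = 0.0938). Against the chromosome 4 and chromosome 10 clusters the width ratios were -0.03 ± 0.15 and -0.02 ± 0.26, and the lists did not share a sign.

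Spacing was read from all distances between peak centres of the same list within a window. A distance was scored by how many pairs lay within 150 bp of it, and that number was set beside the average for 1.5 kb on either side. In the second chromosome 1 window one spacing recurred at its multiples. There 22 distances lay at 7.39 kb (SD 0.0755 kb), against 8.7 nearby. At 2 such steps there were 18 against 6.5, and at 3 steps 10 against 4.1. The window is 3.64 steps long.

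Distances near the step were found in both groups. The untreated lists gave 6 distances at 1 step against 2.7 nearby, and the treated lists 16 against 6.0. By list the numbers were 3 and 3 untreated and 8, 5 and 3 treated, against 1.6, 1, 3.5, 1.9 and 0.7 nearby, a description only, since the step was chosen as a frequent distance of these same lists. At 2 steps the numbers were 3 and 0 untreated and 8, 5 and 2 treated, against 1, 0.7, 2.4, 1.7 and 0.7 nearby, so the multiple was missing in untreated list 2. At 3 steps they were 2 and 1 untreated and 2, 1 and 4 treated, against 0.9, 0.4, 1.2, 0.8 and 0.8 nearby. Treated list 2 was thus close to its nearby average there. Measured between peak starts the step was 7.38 kb, and between merged regions of at least 2 lists it was 7.45 kb. It was not the most frequent distance in every list, since treated lists 2 and 3 had shorter ones, at 1.36 and 1.78 kb.

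Chains of at least 3 peaks, each within 300 bp of 1 step from the last, were found in untreated list 1 and treated lists 1 and 2. Untreated list 2 and treated list 3 had none. The lists with chains had 14, 20 and 15 peaks in the window, and those without had 9 and 11. How many chains would arise without a step was not computed. Treated lists 1 and 2 held further chains that are not given here. In treated list 1, peaks at 2.21, 9.30, 16.8 and 24.2 kb from the first base of the window had scores of 13.2, 20.0, 9.50 and 11.7. In treated list 2, peaks at 3.93, 11.4, 18.7 and 26.1 kb had scores of 4.89, 11.4, 6.31 and 5.76. In untreated list 1 a chain of 3 peaks ran through 11.7, 19.0 and 26.5 kb, with scores of 7.19, 4.86 and 4.79. Scores along a chain were thus unequal although the positions repeated.

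When the window was cut into steps, its regions fell on the same part of each. Every region held by at least 2 lists had its middle between 0.33 and 4.13 kb from the start of its step. Beyond 4.13 kb lay the middles of only 2 regions, each with a peak in 1 list, at 6.77 and 6.80 kb. The fourth step is not complete in the window. The step was taken from these same positions, so the alignment describes the window and does not test the step. The region of this window with the highest mean percentile among those in all 5 lists, chr1:161435988-161437146, had scores of 4.71 and 7.15 untreated and 11.7, 17.8 and 6.03 treated.

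**Figure D4:**
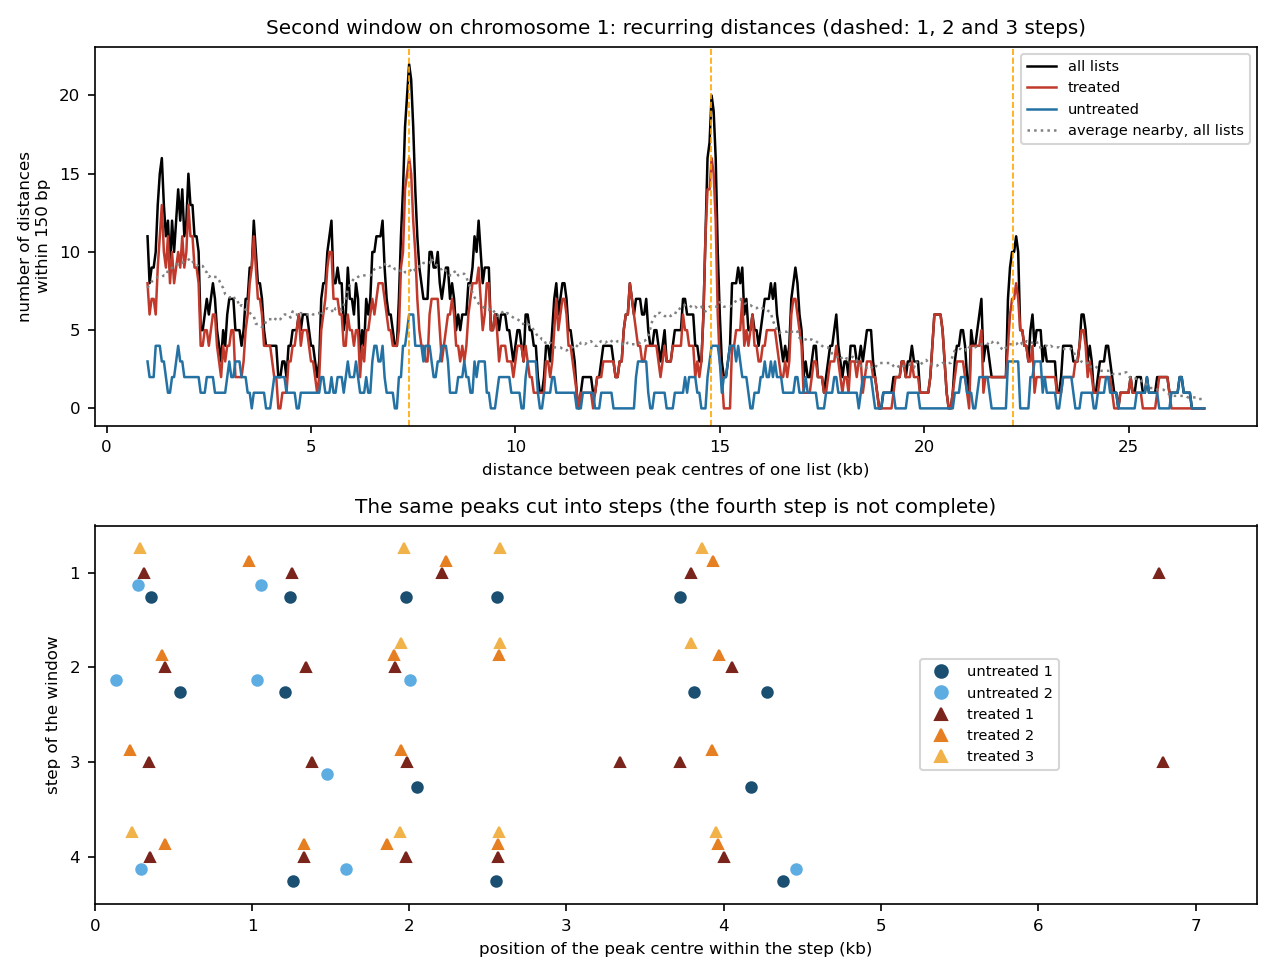
Top, number of distances between peak centres of one list within 150 bp of each distance (horizontal axis, kb) in the second chromosome 1 window, for all lists together and for each group; dashed lines mark 1, 2 and 3 steps of 7.39 kb and the dotted line the nearby average. Bottom, peak centres of every list cut into steps of that length, with 1 band per step; they line up in columns in the first 5 kb of the step, and only 2 lie after it; the fourth step is not complete.

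The other windows had spacings that moved more with the way they were measured. With all lists pooled, their most repeated distances were 6.997 kb in the first chromosome 1 window and 2.58 kb on chromosome 2. In the chromosome 5 windows they were 7.69 and 3.39 kb. They were 1.53 kb on chromosome 9, 3.59 kb on chromosome 16, 18.4 kb on chromosome 17 and 2.70 kb on chromosome 19. The first chromosome 1 window had 30 distances at its value against 20 nearby, but 13 against 16.1 at 2 steps. There the untreated lists alone gave 1.99 kb and the treated lists 6.996 kb. On chromosome 2 the untreated lists gave 6.60 kb and the treated lists 2.57 kb. The chromosome 17 value is the distance between its only 2 regions. In the second chromosome 5 window 12 distances lay at 3.39 kb against 3.4 nearby, with 5 against 2.8 at 2 steps and 4 against 2.3 at 3 steps, but its most repeated distance between peak starts was 1.76 kb. When measured between peak starts or between merged regions of at least 2 lists, the distance stayed within 150 bp under both only in the second chromosome 1 window.

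The chromosome 2 window held the highest-scoring window peak of each list. In untreated list 1 the top score was 73.9 and in treated list 2 it was 83.5, both in the region chr2:133026571-133027029. In treated list 1 it was 74.4, at chr2:133025517-133025889, and in untreated list 2 it was 35.2, at chr2:133016235-133017436. In treated list 3 it was 36.6, at chr2:133038107-133038795, at the far end of the window. The top peak of treated list 3 thus lay apart from those of the other 4 lists, which all fell in a stretch where treated list 3 had no peak.

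That stretch ran from 133015360 to 133032268 on chromosome 2, over 16.9 kb. The other 4 lists held 33 peaks wholly inside it, not counting peaks that crossed its borders. Of the 33, 10 and 6 were untreated, and 11 and 6 were in treated lists 1 and 2. Their scores ran from 8.48 to 83.5, and 30 of the 33 stood at or above the 90th percentile of their list, with a median of 98.7. The region chr2:133026571-133027029 inside it had scores of 73.9 and 25.1 untreated and 50.7 and 83.5 in treated lists 1 and 2. The stretch empty in treated list 3 is therefore among the highest-ranked sequence of the other lists.

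At the end of this stretch treated list 3 reappeared with a weak peak. The region chr2:133032112-133032755 had scores of 38.7 and 31.8 untreated and 49.99, 54.1 and 2.25 treated, and the last value ranked at percentile 1.14 of its list. At the borders of the window treated list 3 had the highest score of all lists. The region chr2:133011745-133012950 had scores of 14.1 and 9.61 untreated and 18.2, 24.1 and 27.4 treated, and chr2:133038107-133038795 had 6.63 and 17.3 untreated and 15.1, 3.70 and 36.6 treated. By percentile within the list, treated list 3 stood at 96.6 in the first, below the 98.5 of treated list 2, and at 98.7 in the second, the highest of the 5.

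The chromosome 16 window also had a stretch without a peak in treated list 3, with fewer peaks of the other lists than on chromosome 2. It ran from 33939356 to 33952163, which is 12.8 kb. The other lists held 14 peaks wholly inside it. Of these, 4 and 1 were untreated, and 6 and 3 were in treated lists 1 and 2. Of the 14, 8 stood at or above the 90th percentile of their list. Within the stretch, the part from 33944516 to 33949351 held no peak in any list. Of the regions in all 5 lists on chromosome 16, the one with the highest mean percentile, chr16:33963737-33964297, had scores of 33.4 and 28.2 untreated and 49.2, 23.0 and 10.00 treated, with treated list 3 below the rest.

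Counted over regions, 47 in the windows were held by the 4 lists other than treated list 3, and treated list 3 held 32 of them, or 68.1%. Genome-wide it held 55.2% of the 268 such regions, and a like share of the 221 outside the windows. The regions it lacked were not spread evenly over the windows: it lacked 8 of 12 on chromosome 2 and 3 of 8 on chromosome 16, 2 of 5 in each chromosome 1 window, and none in the other 5 windows. On chromosomes 2 and 16 together it lacked 11 of 20, while untreated list 2 lacked 1 of the 10 regions held by all lists but itself, and each of the other 3 lists lacked 0 of 9. The latter denominators hold only regions that treated list 3 kept. Outside the windows, of the regions held by the other 4 lists, untreated lists 1 and 2 held 89.2% and 74.4%, treated lists 1 and 2 held 99.1% each and treated list 3 held 52.5%, so that its 9 of 20 here lay near its share elsewhere. These windows were singled out after their values were seen, and the difference was not tested.

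**Figure D5:**
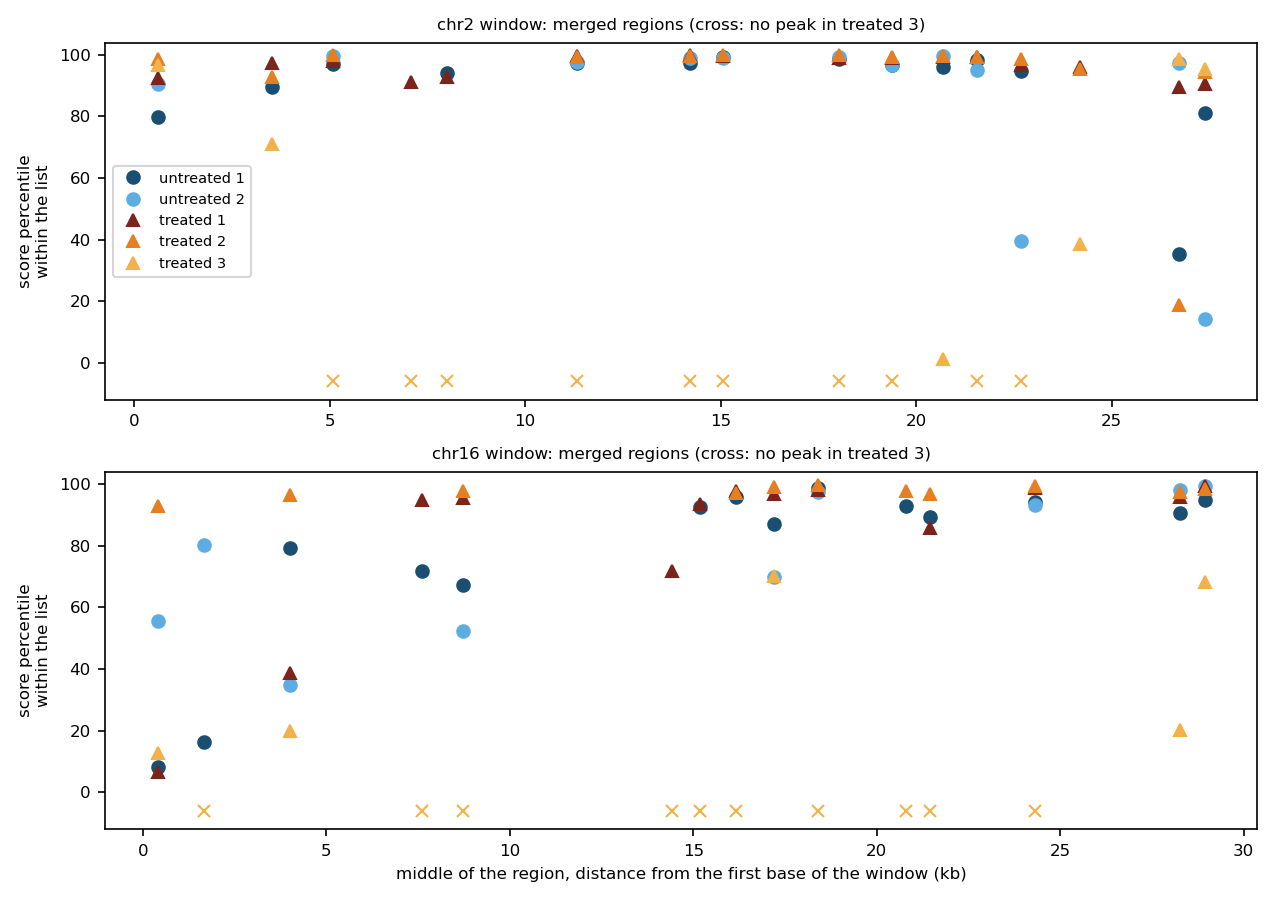
Score percentile within the list (vertical axis) for each merged region of the chromosome 2 and chromosome 16 windows, placed by the distance of its middle from the first base of the window in kb; circles are untreated and triangles treated lists. Crosses below 0 mark regions in which treated list 3 had no peak; on chromosome 2 they fill the middle of the window, where the other lists stand mostly above 90.

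Treated list 3 shares its run identifier with untreated list 2, which held 6 peaks wholly inside the empty chromosome 2 stretch. It is also the shortest list, with 528 peaks. Regions on chromosome 2 that ranked highest in the other lists were missing from it. Of the regions that every other list held in the lower-ranked chromosome 19 window, it held 6 of 6. The part that list length, depth or sequence content plays in this was not tested.

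In the remaining windows the region in all 5 lists with the highest mean percentile was as follows. In the first chromosome 5 window it lay at the start, chr5:17517597-17518165, with scores of 25.2 and 16.2 untreated and 21.0, 22.2 and 18.1 treated. In the second it lay at the end, chr5:17598551-17599512, with 14.8 and 4.88 untreated and 17.5, 6.57 and 8.31 treated. Scores in the first varied less over the lists than those in the second, and the groups overlapped in both.

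The first chromosome 1 window also had its leading recurrent region at its end, chr1:2627723-2629801, with scores of 22.4 and 15.3 untreated and 23.3, 9.81 and 12.8 treated. On chromosome 9 the leading region was chr9:44877756-44878842, with 26.0 and 18.0 untreated and 18.7, 14.2 and 7.24 treated. On chromosome 19 it was chr19:36796917-36798973, with 8.47 and 6.04 untreated and 6.503, 7.68 and 7.29 treated, a narrow range over the lists. Scores of different lists may not share one scale, so these values describe each list and were not tested between groups.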

How the data were processed

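p300 was profiled in 5 libraries, 2 untreated and 3 treated, and peaks were called per library. The submitters' processing notes name hg19 as the build and MACS2 as a tool. Aligner, threshold and the use of the 4 input libraries (none analysed here) are not given in the sources at hand. The authors deposited start and end positions and a score per peak in each list. The scale of the deposited score is not named, so it was used as a within-list percentile with ties averaged. Depth is unknown, which leaves counting precision unknown. Positions were converted to count from 1.

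Windows were rebuilt from the lists and matched the 9 described. The members and lists were chosen with earlier results of these data known. Groups were compared by exact permutation, two-sided, over the 10 ways to draw 2 of the 5 lists, and values within lists with an exact sign-flip test. p-values were adjusted by the Benjamini-Hochberg method. Region names followed a rule: in each window the region in all 5 lists with the highest mean percentile, and the top window peak of each list; other regions in the text, including both on chromosome 17 and further ones on chromosome 2, were chosen after their values were seen. Alternatives were a common score minimum, equal numbers of top peaks, peak centres, leaving out the window with the most peaks or each list, other averages, overlap and merging rules, a replicate block and, chosen after seeing the data, run-identifier pairs and merged-region spacing. The counting, tests and distance scan were tested on simulated data. Python 3.11.15, numpy 2.4.6, pandas 2.3.3 and matplotlib 3.10.9 were used.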

Additional observations from a re-analysis of the deposited data

Results flagged for a closer look

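In 3 measures the pairs of lists that share a run identifier moved in opposite directions between treated and untreated, and the difference between the pairs was not tested. The share of a list lying in the windows differed by -1.58 percentage points between treated and untreated list 1, and by 10.1 points between treated list 3 and untreated list 2. The median score percentile of window peaks differed by 10.7 in the first pair and by -28.3 in the second. The width of window peaks relative to the other peaks of the list differed by 0.22 on the log2 scale in the first pair and by -0.15 in the second. Each direction rests on 1 list per group.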

How the results depend on the processing

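Over the 8 compared results, 80 of 88 alternatives kept the direction. The alternatives were not independent. Counting by peak centre gave the main values unchanged for all 8 results. For share, percentile and relative width, the replicate block repeated the values without treated list 3. The run-identifier pairs repeated those without treated list 2. The percentile difference between groups, 1.74, reversed to -22.7 when each list was limited to its 528 top-scoring peaks, to -3.04 without the first chromosome 1 window and to -8.81 with pairs of one run identifier, and ranged from -8.81 to 16.95 when each list was left out. The difference in share, 1.91, became -1.01 with group medians and ranged from -1.88 to 4.24 when each list was left out. With the replicate number as a block (replicate block, 2 pairs), share was -1.88, number 0.53 and percentile 16.95, and relative width was 0.24 on the log2 scale; with 2 pairs, no check of the pairing was possible. The cause of these reversals was not tested. The 32 regions in all 5 lists fell to 10 with equal numbers of top peaks, since fewer peaks were used, and were 28 to 31 under the other overlap, merging and score rules. The percentile and width differences from isolated recurrent regions kept their sign under every alternative run. No setting could take the percentile difference past 0.05, and the width difference is given without a test. Of 18 alternative spacings, 12 moved by more than 150 bp. Peak number measures binding and library yield together, and depth is unknown.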
